A study of Mus musculus with 6 samples.

Results

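The lens capsule is the basement membrane that encloses the lens, and the genes described here encode its best known structural proteins. They were chosen by symbol and not by a cutoff on their counts, though with earlier results of these data known. They are the rows of the deposited count table named Col4a1, Col4a2, Lama1, Lama5, Lamb1, Lamc1, Nid1, Nid2, Hspg2 and Sparc. All 10 were present among the 13024 genes of the table, and all 10 passed the filter on low counts that left 12879 genes for testing.

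RNA-Seq was performed on 6 pools of mouse lenses at E14.5 (embryonic day), each of 10 lenses from 5 embryos, with 3 pools in each group. Gata3 CKO embryos carried 2 floxed alleles of Gata3 and 1 copy of Pax6-Cre (Gata3 f/f, Pax6-Cre/+), and control embryos carried no Cre. The labels call the control wild type, whereas the study gives it as Gata3 f/f in its methods and as Gata3 f/wt elsewhere, so a floxed allele without Cre may be present in the control pools. Cre in this line is driven by a Pax6 enhancer of the ocular surface ectoderm and acts in the precursors of lens and cornea, and per the study also in scattered cells of the neural retina. The mice were on a mixed C57BL/6 and FVB background. Control pools are numbered 1 to 3 and CKO pools 1 to 3 by their titles.

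Type IV collagen and laminin each form a network in every basement membrane. Col4a1 and Col4a2 encode the chains of the most widespread type IV collagen, which assembles as a triple helix of both chains and is secreted as such. Laminins are trimers of an alpha, a beta and a gamma chain, nidogens bridge laminin to type IV collagen, and perlecan (Hspg2) adds heparan sulfate. Sparc is a calcium-binding matrix protein that binds collagen and is not a network subunit, and mice without it develop cataract. In the lens, the epithelium lays down the anterior capsule and the fibre cells the posterior capsule. The same proteins are also made by vessels and by the mesenchyme around the eye.

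Libraries held 15157230 to 18811104 counts on genes. Control pool 2 stood apart on the leading principal component, which held 42.7% of the variance. Crystallins, the bulk proteins of fibre cells, took 16.5% of its counts and 5.47% to 9.31% in the other 5 pools. Gata3 itself had 202, 386 and 156 counts in control pools 1, 2 and 3, and it had 910, 1064 and 894 in libraries with the CKO label. Since only exon 4 is deleted and the table gives 1 count per gene, this count does not check the genotype, and every direction given is that of the label. The study itself reports from its RNA-Seq that exon 4 was removed in mutant lenses.

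Col4a1 and Col4a2 lie head to head on chromosome 8, Col4a1 on the reverse strand (chr8:11198423-11312826) and Col4a2 on the forward strand (chr8:11312805-11449287) in GRCm38 (mm10). In RefSeq (GRCm38.p6) their starts, at 11312826 and 11312805, leave 22 bases that both first exons cover. The overlap is shown because the counts of this pair moved together more tightly than those of any other pair of the 10 genes. This tightness was not compared with that of all pairs of tested genes, and whether the overlap has a part in it was not tested. It is written 5′ to 3′ on the strand of each gene, with the single GC box in capitals, which reads GGGCGG on the forward strand and so CCGCCC on the reverse.
Col4a2 (chr8:11312805-11312826, forward strand): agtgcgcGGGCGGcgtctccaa
Col4a1 (chr8:11312805-11312826, reverse strand): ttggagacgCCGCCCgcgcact

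RefSeq windows of 300 bases, from 250 before to 50 after a gene's start, were matched for 7 of the 10 genes, all but Lama1, Lamc1 and Nid2. The GC box GGGCGG was found on either strand in 6 of these 7 windows and in 35.7% of 32851 windows of the same length, and CCAAT in 4 of 7 against 37.4%. The GATA motif, whose spelling was AGATAA with the last base A or G and the opening base A or T, was in 0 of 7 windows and in 29.8% of all windows when both strands were searched, which says only that these letters are not in these windows. Hspg2 had 5 GC boxes, Lama5 had 4, Col4a2 had 3, Lamb1 had 2, and Col4a1 and Nid1 had 1 each. Sparc had 0 GC boxes and 0 CCAAT boxes in its window. That window was set at the RefSeq start, 55420080 on chromosome 11, whereas in GENCODE M21 the gene, on the reverse strand, reaches 55423183. The stretch before the GENCODE start was not searched. The Col4a1 and Col4a2 windows shared 78 bases, and the only GC box of Col4a1 lay there, so it counted for both. The share of G and C ran from 55.3% (Sparc) to 74% (Col4a1), and the windows they were compared with were not matched for it. The stretches upstream of the annotated exons of Hspg2, Lama5, Lamb1 and Nid1 are given to show how these boxes lie, in a core subunit of each assembly other than type IV collagen. Capitals mark GC boxes and CCAAT boxes on either strand, and a match is a description of the letters and not a bound site.
Hspg2 (chr4:137468553-137468768, forward strand): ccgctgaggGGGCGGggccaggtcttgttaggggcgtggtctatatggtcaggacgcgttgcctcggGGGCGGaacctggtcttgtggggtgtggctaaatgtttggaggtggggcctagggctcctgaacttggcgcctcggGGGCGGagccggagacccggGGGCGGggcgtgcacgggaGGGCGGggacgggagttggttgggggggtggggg
Lama5 (chr2:180225860-180226109, reverse strand): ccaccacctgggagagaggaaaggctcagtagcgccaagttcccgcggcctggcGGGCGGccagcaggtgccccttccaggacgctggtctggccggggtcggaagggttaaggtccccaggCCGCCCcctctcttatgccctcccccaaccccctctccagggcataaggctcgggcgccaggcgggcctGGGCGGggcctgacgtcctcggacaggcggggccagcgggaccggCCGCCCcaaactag
Lamb1 (chr12:31265043-31265233, forward strand): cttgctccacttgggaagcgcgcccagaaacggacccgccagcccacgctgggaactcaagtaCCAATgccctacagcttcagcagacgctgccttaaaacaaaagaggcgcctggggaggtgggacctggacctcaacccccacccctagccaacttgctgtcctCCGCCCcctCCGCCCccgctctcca
Nid1 (chr13:13437352-13437550, forward strand): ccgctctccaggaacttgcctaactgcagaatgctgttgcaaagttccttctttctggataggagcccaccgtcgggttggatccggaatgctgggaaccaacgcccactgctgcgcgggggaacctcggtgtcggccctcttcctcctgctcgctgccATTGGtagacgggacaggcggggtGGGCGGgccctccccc

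Levels of the 10 genes were first compared per length, as FPKM, the fragments per kilobase of exon scaled to library size, computed here from the counts, TMM library sizes and the merged exons of GENCODE M21. In control lenses, Sparc was highest at 241 ± 79.9 FPKM (SD, n = 3), followed by Col4a1 at 199 ± 96.2 and Nid1 at 184 ± 95.9. Col4a2 came next at 151 ± 70.8 FPKM (SD, n = 3). The ranges of these 4 neighbours overlapped, and the Col4a2 mean was 4.22 times that of Lamc1, the next gene, with no overlap.

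Lamc1 stood at 35.7 ± 12.5 FPKM, Hspg2 at 31.1 ± 13.4, Lamb1 at 28.5 ± 12.5 and Lama1 at 22.8 ± 7.63 (SD, n = 3 in each), again with ranges that overlapped from one to the next. Lama5, the laminin alpha chain of many mature basement membranes, had 9.58 ± 4.06 FPKM and Nid2 had 8.38 ± 2.88 in control (SD, n = 3). The mean of Lama1, the alpha chain of the embryonic laminin, was 2.38 times that of Lama5, and their ranges did not overlap.

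With merged exons as length, the order in Gata3 CKO lenses differed only by an exchange between Nid1 and Col4a1. By this length 8 of the 10 genes kept their rank. Sparc was again highest at 302 ± 35.8 FPKM (SD, n = 3), now 2.02 times Nid1 at 149 ± 26.6 and separate from it. Col4a1 followed at 126 ± 17.5 FPKM and Col4a2 at 92.6 ± 7.73, and their ranges no longer overlapped. Lamc1 was 39.8 ± 5.24 FPKM, separate from Hspg2 at 29.6 ± 5.40. Lamb1 at 23.6 ± 3.78 FPKM, Lama1 at 23.0 ± 4.19, Lama5 at 9.12 ± 1.33 and Nid2 at 7.67 ± 4.41 closed the order. Of the 9 pairs of neighbours, 7 overlapped in control and 4 in CKO. The highest mean was 28.7 times the lowest in control and 39.3 times in CKO.

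**Figure D1:**
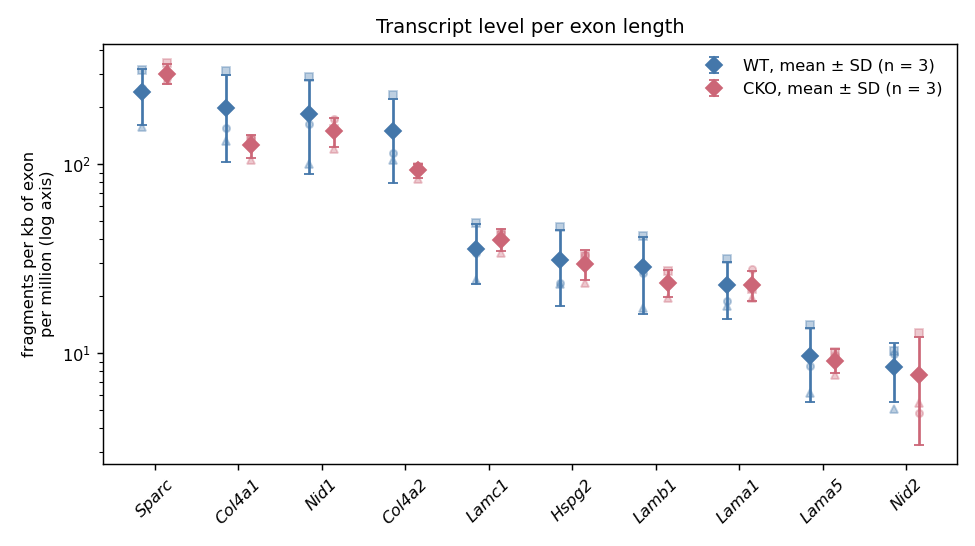
Level of each gene in FPKM, on a log axis, in control (WT, blue) and Gata3 CKO (red) lenses. Diamonds and bars are mean ± SD of 3 pools and pale symbols are the pools. The means of Sparc, Col4a1, Nid1 and Col4a2 are 92.6 FPKM or more in both groups, and Lama5 and Nid2 are lowest.

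None of the 10 genes (0) passed edgeR's quasi-likelihood test at an adjusted p of 0.05 or at an unadjusted p of 0.05. Over all 12879 genes tested, the share called was 0% at the adjusted and 3.55% at the unadjusted threshold (457 genes). DESeq2's Wald test called 0 of the 10 genes at an adjusted p of 0.05, where it called 0.661% of all genes (85 of 12866). At an unadjusted p of 0.05 it passed 2 of the 10, Col4a1 and Col4a2, and 3.94% of all genes (507). The fitted level was lower in CKO for 7 genes and higher for 3, with a median log2 fold change of -0.10, against 0.00187 over all genes tested. The adjusted p was 0.9998 for each of the 10 in edgeR. When control pool 2 was left out, 2 of the 10 had a lower fitted level in CKO and the median was 0.26.

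**Figure D2:**
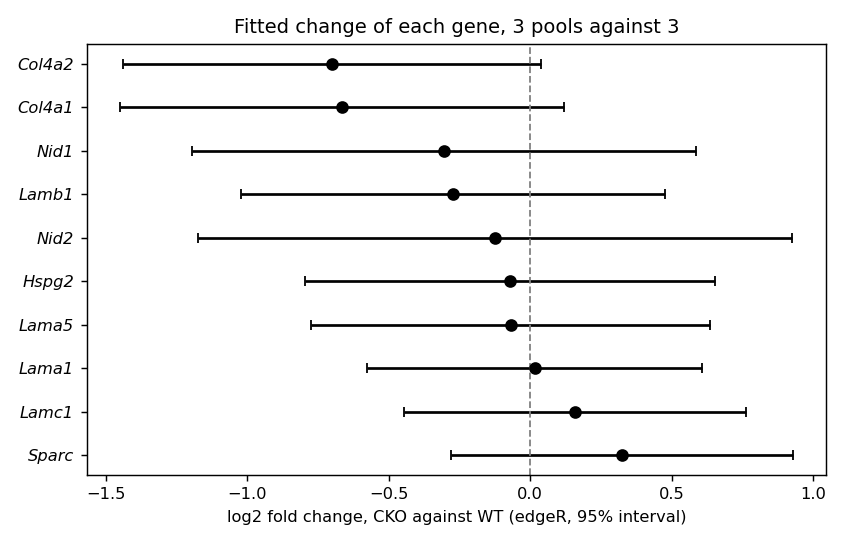
Log2 fold change of each gene in Gata3 CKO against control (points) with its 95% interval from the quasi-likelihood fit, 3 pools against 3. Every interval contains 0, and the values run from -0.70 for Col4a2 to 0.32 for Sparc.

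Type IV collagen had the largest fitted differences of the 10 genes. Col4a1 had 1163, 2311 and 989 CPM (counts scaled to equal library size by TMM) in control pools 1, 2 and 3, and 1026, 1001 and 789 in CKO pools 1, 2 and 3. Control pool 2 was far above the other 5, and CKO pools 1 and 2 lay between control pools 1 and 3. The mean was 1488 ± 718 CPM in control and 939 ± 130.4 in CKO (SD, n = 3), and the fitted log2 fold change was -0.66 (SE, the standard error, 0.33, 95% interval -1.45 to 0.12, edgeR unadjusted p = 0.0847).

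Col4a2 had 761, 1536 and 693 CPM in control and 644, 641 and 554 in CKO. All CKO pools were below all control pools, which held for 4.69% of all genes tested, and the gap between the nearest pools, 693 and 644, was small beside the distance of control pool 2 from the rest. The log2 fold change was -0.70 (SE 0.31, 95% interval -1.44 to 0.04, edgeR unadjusted p = 0.0595, DESeq2 adjusted p = 0.749). Col4a2 was the only 1 of the 10 genes whose groups did not overlap, where 8.33% of all genes did not overlap in either direction. Without control pool 2 the log2 fold change was -0.19 for Col4a1 and -0.23 for Col4a2. Since these are pools of whole lenses, fewer cells of a type and less RNA per cell cannot be told apart.

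Among the laminin chains, Lama1 had 183, 306 and 173 CPM in control and 268, 211 and 189 in CKO. The groups overlapped, with control pool 2 highest, and the log2 fold change was 0.02 (95% interval -0.58 to 0.61). Lama5 had 96.9, 160.2 and 70.3 CPM in control and 110.5, 115 and 86.6 in CKO, and the fitted log2 fold change was -0.07 (95% interval -0.78 to 0.64). All 3 CKO pools lay inside the control range.

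Lamb1, the beta chain shared by these laminins, had 263, 415 and 171 CPM in control and 238, 269 and 195 in CKO. Its CKO pools also lay inside the control range, with a log2 fold change of -0.27 (SE 0.31, 95% interval -1.02 to 0.48). Lamc1, the gamma chain of most laminins, had 279, 405 and 201 CPM in control and 359.5, 349 and 279.7 in CKO. Its CKO pools again fell inside the control range, and its log2 fold change was 0.16 (SE 0.25, 95% interval -0.45 to 0.76). When control pool 2 was left out, the fitted values of Lama5, Lamb1, Nid1, Nid2 and Hspg2 turned from lower to higher in CKO.

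Nid1, the more abundant nidogen, had 1135, 2006 and 698 CPM in control and 1204, 1066 and 838 in CKO. Control held both the highest and the lowest pool, and the log2 fold change was -0.30 (SE 0.37, 95% interval -1.20 to 0.59). Nid2 had 50.9, 53.0 and 26.2 CPM in control and 25.0, 66.0 and 28.1 in CKO, and the fitted log2 fold change was -0.12 (SE 0.44, 95% interval -1.17 to 0.93). It was highest in CKO pool 2 and lowest in CKO pool 1, so the spread within CKO exceeded the distance between the groups. In GENCODE M21, 437 exon bases of Nid2, or 8.45%, also lie in exons of Rtraf, and 143 of Nid1, or 2.06%, in Gm48682, so some fragments of these genes could have been counted either way. The shared part was 0.295% for Col4a1 and 0.982% for Col4a2, and 0 for the other 6 genes.

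Hspg2, which encodes perlecan, had 335, 667 and 333 CPM in control and 472, 464 and 334 in CKO. Control pools 1 and 3 were close to CKO pool 3, and the log2 fold change was -0.07 (SE 0.30, 95% interval -0.80 to 0.65). Sparc had 952, 1193 and 592 CPM in control and 1079, 1298 and 1049.8 in CKO. Control pool 3 was lowest and CKO pool 2 highest, and the log2 fold change of 0.32 was the most positive of the 10 (SE 0.25, 95% interval -0.28 to 0.93, edgeR unadjusted p = 0.241).

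The 10 genes together took 0.521%, 0.786% and 0.407% of the counts in control pools 1, 2 and 3, and 0.552%, 0.573% and 0.456% in CKO. Control pool 2 was the highest library for 8 of them, all but Nid2 and Sparc, and for 31.6% of all genes tested. Control pool 3 was the lowest library for 7 of the 10 and for 21.3% of all genes tested. The control group thus held both extremes for 6 of the 10, and its SD exceeded that of CKO for 9 of the 10.

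**Figure D3:**
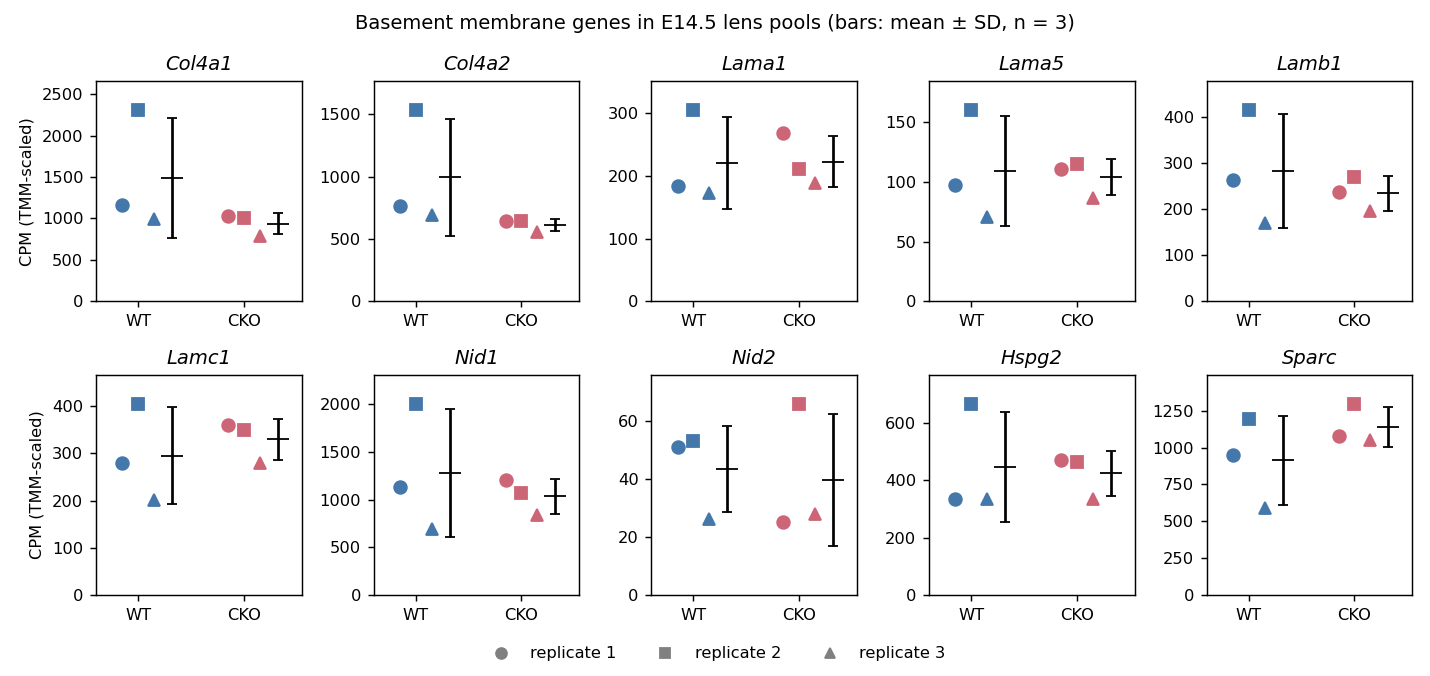
Level of each gene in CPM (linear axes from 0) in each control (WT, blue) and Gata3 CKO (red) pool, with mean ± SD of 3 pools in black; symbols mark the replicate number. Control pool 2 (blue square) is the highest of the 6 in 8 panels, and the groups do not overlap for Col4a2 alone.

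A ratio of 2 genes within a library does not depend on how that library was scaled. For 6 ratios within known assemblies, each was compared by an exact two-sided permutation test on its log2 value, with Benjamini-Hochberg adjustment over the 6. The smallest p that 3 pools against 3 allow is 0.1. The Col4a1/Col4a2 count ratio was 1.53, 1.5 and 1.43 in control and 1.59, 1.56 and 1.42 in CKO, a log2 difference of 0.04 (exact p = 0.6, adjusted 0.9). The SD of this log2 ratio over the 6 pools, 0.0665, was the smallest of the 45 pairs that the 10 genes form, whose median was 0.322. The pair thus kept its proportion in control pool 2, where both were about 2 times as high as in the other control pools.

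Lamb1/Lamc1 was 0.940, 1.02 and 0.849 in control and 0.661, 0.772 and 0.696 in CKO. All CKO pools were below all control pools, a log2 difference of -0.40 (exact p = 0.1, the smallest possible, adjusted 0.6), and leaving out single libraries gave differences of -0.47 to -0.33. Lama1/Lamc1 differed by -0.16 on the log2 scale (exact p = 0.4, adjusted 0.9) and Hspg2/Nid1 by 0.18 (exact p = 0.5, adjusted 0.9). Lama1/Lama5 differed by 0.05 and Nid1/Nid2 by 0.01 (exact p = 1 for both). These 4 ratios overlapped between the groups.

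Over all 45 pairs of the 10 genes, the groups did not overlap in 20, where 9.45% of the 82927881 pairs of tested genes did not overlap. The pairs share genes, so they are not independent, and the ratios described from here on were chosen after their values were seen and carry no test. Of the 20 pairs, 14 paired Col4a1 or Col4a2 with another of the genes, and in all 14 the type IV collagen gene was the relatively lower in CKO. Each of Col4a1 and Col4a2 was lower in CKO relative to 7 of the 8 others, all but Nid2. The other 6 pairs were Lama5/Lamb1 and Lamc1/Nid1, higher in CKO, and Lama5/Lamc1, Lamb1/Lamc1, Lamb1/Sparc and Nid1/Sparc, lower in CKO. Without control pool 2, the count was also 20 of 45, and the share over all pairs of tested genes rose to 22%. Leaving out a library cannot make separate groups overlap, so this count could not fall and does not show stability.

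Relative to Lamc1, the laminin chain that all these trimers share, Col4a1 had a count ratio of 4.16, 5.70 and 4.92 in control and 2.85, 2.87 and 2.82 in CKO. The 3 CKO pools were close to each other and well below the lowest control pool, a log2 difference of -0.78. Col4a2/Lamc1 was 2.72, 3.79 and 3.45 in control and 1.79, 1.84 and 1.98 in CKO, a log2 difference of -0.82. Leaving out single libraries gave differences of -0.90 to -0.67 for Col4a1/Lamc1 and -0.95 to -0.71 for Col4a2/Lamc1, so that neither rested on control pool 2, in contrast to the fold changes of the single genes.

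The log2 difference was widest relative to Sparc, at -0.95 for Col4a1 and -0.98 for Col4a2. Relative to Lama1 it was -0.62 and -0.66, to Lama5 -0.57 and -0.61, and to Hspg2 -0.56 and -0.60. Among the ratios that did not overlap it was narrowest relative to Lamb1 (-0.38 and -0.42) and Nid1 (-0.38 and -0.42). Relative to Nid2, where the groups overlapped, it was -0.37 and -0.41. Many genes outside the 10 shared this relation. The ratio to Col4a1 was lower for Col4a1 in every CKO pool for 2893 of the 12878 other genes (22.5%), and the ratio to Col4a2 for 6011 (46.7%). The opposite held for 85 and 74 genes.

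**Figure D4:**
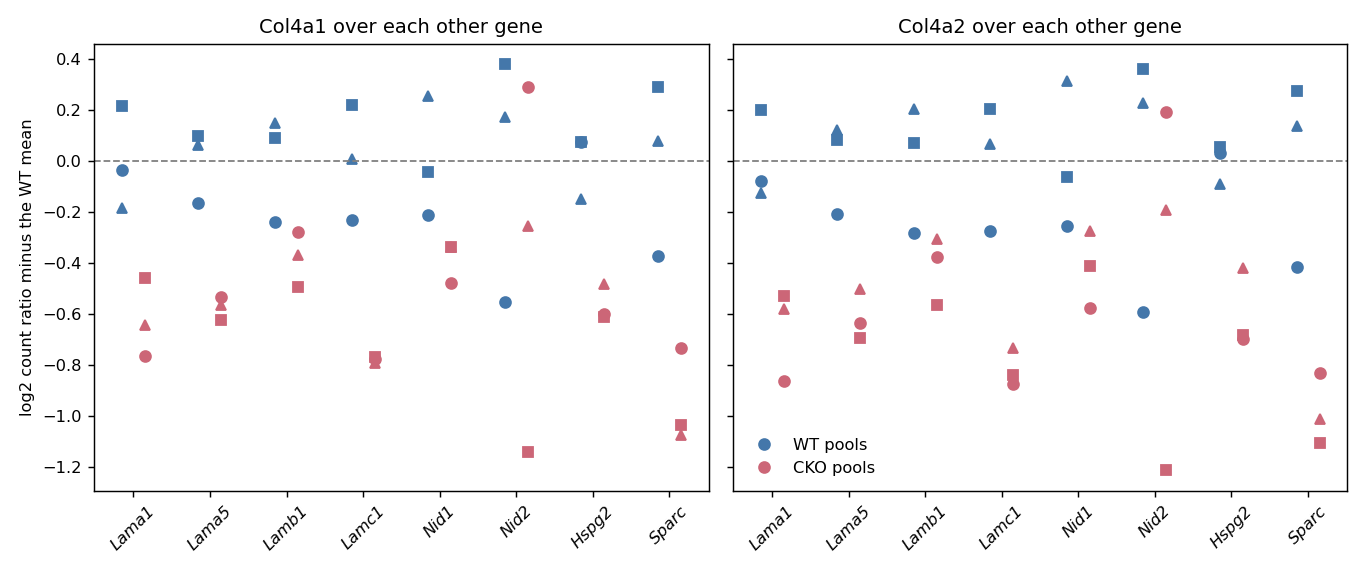
Log2 of the count ratio of Col4a1 (left) and Col4a2 (right) over each of the other 8 genes, minus the mean of the control pools, for each control (WT, blue) and Gata3 CKO (red) pool; circle, square and triangle mark replicates 1, 2 and 3. All CKO pools lie below all control pools in every column except Nid2.

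The other chains of type IV collagen gave a comparison within the same protein family. Of 11 other type IV collagen and laminin chains, Col4a5, Col4a6, Lama2, Lama3, Lama4 and Lamb2 were in the table and tested, and the others were not analysed here. Of the 6 tested, 3 were lower and 3 higher in CKO, 0 of them at an unadjusted p of 0.05 in edgeR or an adjusted p of 0.05 in DESeq2, with a median log2 fold change of 0.03. Col4a5 had 340, 577 and 260 CPM in control and 495, 429 and 380 in CKO (log2 fold change 0.15, SE 0.29), and Col4a6 differed by 0.23 (SE 0.31). Both of these chains, which assemble with each other, had groups that overlapped. Lama2 and Lama3 differed by -0.04 (SE 0.72) and -0.60 (SE 0.29).

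Col4a1/Col4a5 was 3.42, 4.00 and 3.81 in control and 2.07, 2.33 and 2.08 in CKO, a log2 difference of -0.79. Col4a1/Col4a6 differed by -0.89, Col4a2/Col4a5 by -0.83 and Col4a2/Col4a6 by -0.92, in each case with all CKO pools below all control pools. Col4a5/Lamc1 overlapped between the groups, with a difference of 0.01. The ratios of Col4a1 and Col4a2 to Lama4, the laminin alpha chain typical of vessel walls, also overlapped, with differences of 0.03 and -0.01. So did those to the other laminin chains tested in this list, Lama2 (-0.26 and -0.30), Lama3 (0.04 and 0.01) and Lamb2 (-0.67 and -0.71).

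Of 19 other basement membrane components, 18 were tested, 9 lower and 9 higher, with a median log2 fold change of 0.03. Agrn, the proteoglycan agrin, differed by 0.00 (SE 0.18), and Tinagl1 by 0.08 (SE 0.41). Col18a1 and Col15a1, which encode collagens that carry sugar chains, differed by -0.26 (SE 0.13) and -0.54 (SE 0.36). Matn2, which encodes the filament-forming matrilin-2, was the only one with an unadjusted p under 0.05. It had 35.3, 45.4 and 20.1 CPM in control and 8.75, 18.9 and 11.9 in CKO. All CKO pools were below all control pools, with a log2 fold change of -1.34 (SE 0.38, edgeR adjusted p = 0.967, DESeq2 adjusted p = 0.0469), so DESeq2 called it and edgeR did not.

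Of 21 genes listed for folding, export and cross-linking of type IV collagen, 20 were tested, 6 lower and 14 higher, 0 at an unadjusted p of 0.05 in edgeR or an adjusted p of 0.05 in DESeq2, with a median log2 fold change of 0.05. The prolyl hydroxylase subunits P4ha1, P4ha2, P4ha3 and P4hb differed by 0.00, 0.27, 0.01 and -0.03 on the log2 scale (SEs 0.24, 0.22, 0.56 and 0.11). Pxdn, the peroxidase that cross-links type IV collagen, and Lamc1 had a count ratio of 2.08, 1.99 and 2.14 in control and 2.01, 2.0 and 2.15 in CKO. Col4a2/Pxdn, by contrast, was 1.31, 1.91 and 1.61 in control and 0.890, 0.917 and 0.923 in CKO, a log2 difference of -0.80. Among these 20 genes, the ratio of Col4a1 was below all control pools in every CKO pool for 9 and that of Col4a2 for 13, beside 22.5% and 46.7% of all genes. For the other lists, the counts for Col4a1 and Col4a2 were 2 and 2 of 6 other chains, 1 and 1 of 18 other components, 5 and 6 of 14 heparan sulfate genes, 4 and 6 of 12 receptors, and 3 and 4 of 10 proteases and inhibitors. The share among other components was thus below that of all genes for both Col4a1 and Col4a2. For Col4a1 it was above that of all genes in every other list. For Col4a2 it was above in folding and cross-linking genes and in receptors, and below in the rest.

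All 14 genes of heparan sulfate synthesis and editing were tested, 4 lower and 10 higher, with a median log2 fold change of 0.06 and 0 past either threshold in edgeR or an adjusted p of 0.05 in DESeq2. Xylt1 and Xylt2, which start the chains on perlecan and other core proteins, differed by -0.14 and 0.11, and the chain polymerases Ext1 and Ext2 by 0.05 and 0.02 (SEs 0.21, 0.10, 0.14 and 0.10). Of 12 proteases and inhibitors of the matrix, 10 were tested, 3 lower and 7 higher, with a median of 0.11 and again 0 past these thresholds. The matrix metalloproteinases Mmp2, Mmp11, Mmp14 and Mmp15 differed by 0.31, 0.06, 0.12 and 0.00 (SEs 0.73, 0.13, 0.24 and 0.22).

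Receptors for the capsule showed 6 genes lower and 6 higher of 12 tested (13 listed), with a median log2 fold change of -0.02. Itga6, the integrin alpha chain that lens cells use to bind laminin, had 216, 289 and 201 CPM in control and 394, 358 and 345 in CKO. All CKO pools were above all control pools, with a log2 fold change of 0.64 (SE 0.15, edgeR unadjusted p = 0.00357 and adjusted p = 0.638, DESeq2 adjusted p = 0.0163). It was called by DESeq2 and not by edgeR. Its partner Itgb1 differed by -0.04 (SE 0.14), Itga3 by -0.40 (SE 0.24) and Dag1, the core of dystroglycan, by 0.03 (SE 0.10). The Lamc1/Itga6 count ratio was 1.3, 1.4 and 0.999 in control and 0.913, 0.974 and 0.810 in CKO, a log2 difference of -0.44.

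The profile of each gene over the 6 pools was set beside those of marker lists for the cells a dissected lens can hold. Each profile was the log2 CPM scaled to mean 0 and SD 1, likeness was the Euclidean distance between profiles, and the libraries are the same 6 throughout. Col4a1 and Col4a2 lay nearest to the lens fibre list, at 0.638 and 0.598. The blood list came next (0.837 and 0.797) and then the lens epithelium list (0.924 and 0.942). All of these lists were highest in control pool 2. The fibre list includes Bfsp2, Lenep, Dnase2b and Crygb, which the study reports as lower in CKO from these same libraries, so its low CKO values were partly known beforehand. Of the other genes tested, 193 (1.5%) were nearer to the fibre list than Col4a1 was and 166 (1.29%) than Col4a2 was. Lama1, Lamc1 and Nid1 lay nearest to the lens epithelium list (1.80, 1.94 and 0.968). Lama5, Lamb1 and Hspg2 lay nearest to the blood list (1.34, 0.992 and 1.61), with the epithelium next, and Nid2 and Sparc nearest to surface ectoderm (1.0 and 1.73). All 10 were far from the retina list, at 4.06 to 4.47.

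**Figure D5:**
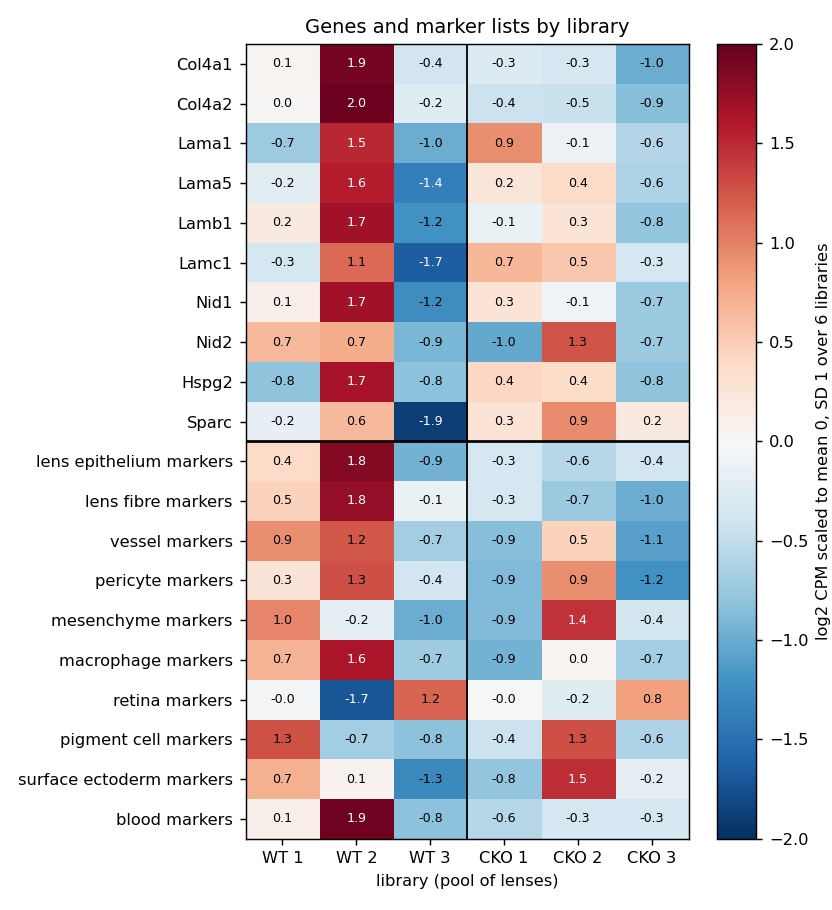
Log2 CPM scaled to mean 0 and SD 1 over the 6 pools, for the 10 genes (top) and for the mean of each marker list (bottom), in control (WT) and CKO pools; numbers are the scaled values. Col4a1 and Col4a2 show the pattern of the lens fibre row, high in WT 2 and lowest in CKO 3.

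Markers of several cell types moved with these values. All 11 lens fibre markers had lower fitted values in CKO, 7 of them at an unadjusted p of 0.05 in edgeR, with a median log2 fold change of -1.15 and a summed level of 18656 to 55290.0 CPM in control and 15058 to 22176 in CKO. The fibre filament genes Bfsp1 and Bfsp2 differed by -2.72 (SE 0.47) and -1.55 (SE 0.34). All 7 lens epithelium markers had lower fitted values, with a median of -0.35 and summed levels of 1852 to 3089.5 CPM in control and 2132 to 2329.9 in CKO, and Foxe3 and Pax6 differed by -0.48 (SE 0.39) and -0.04 (SE 0.09).

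Of 11 vessel markers, 10 had lower fitted values in CKO, 1 of them at an unadjusted p of 0.05, with a median of -0.39 and summed levels of 313 to 426 CPM in control and 282 to 369 in CKO. Pecam1 and Cdh5 differed by -0.59 (SE 0.31) and -0.45 (SE 0.32). Pericyte markers had lower fitted values in 5 of 6, at 227 to 310.1 CPM in control and 214 to 286 in CKO, with Pdgfrb at -0.05 and Rgs5 at -0.57. Macrophage markers did so in 7 of 7, at 73.4 to 142 CPM in control and 65.7 to 89.0 in CKO, with Csf1r at -0.47 and Cx3cr1 at -0.21. The 3 blood markers tested also had lower fitted values, with the summed blood level at 346 to 1267 CPM in control and 279 to 409 in CKO. Hba-a2, Hbb-bt and Hbb-bs had 0 counts in every library, and whether their RNA was absent or not counted was not tested.

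Mesenchyme markers had higher fitted values in 10 of 11 and set 2 pools apart. Their summed level was 2380.2 CPM in control pool 1 and 4188 in CKO pool 2, and 318 to 682 in the other 4, with Pdgfra at -0.23 and Col1a1 at 0.74 on the log2 scale (SEs 0.35 and 1.28). Pigment cell markers, with 4 of 5 higher (Pmel 0.05, Dct 0.06), stood at 309 and 313 CPM in the same 2 pools and at 53.3 to 71.6 in the other 4. Surface ectoderm markers, with 4 of 7 higher (Krt5 0.34, Krt14 -0.01), were also highest in these pools, at 106 and 161 CPM, and at 44.4 to 93.7 in the other 4. Nid2 and Sparc were highest in CKO pool 2. In control pool 1, however, both were below control pool 2 (50.9 against 53.0 CPM for Nid2, 952 against 1193 for Sparc). Retina markers had higher fitted values in 8 of 9, at 1059 to 2078 CPM in control and 1442 to 2018 in CKO, lowest in control pool 2, with Rax at 0.15. The part of fibre, vessel, mesenchyme or other cells in the values of the 10 genes was not tested.

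The mean scaled profile of the 10 genes was 1.45 in control pool 2, -1.07 in control pool 3 and -0.12 to 0.28 in control pool 1 and CKO pools 1 and 2. Lama5 was the nearest of the 10 to this mean, at a distance of 0.386, and Nid2 the farthest, at 1.83. The 10 other genes nearest to it were Atp6ap1 (0.375), Alox5, Trappc3, Efcab1, Sec61a1, Pip4k2c, Eci1, Tenm3, Scfd1 and Dynlt3 (0.430). Sec61a1, a subunit of the channel through which secreted proteins enter the endoplasmic reticulum, had 223 CPM, 246 CPM and 207 CPM in control and 225, 228 and 217 in CKO, a range far narrower than that of any of the 10 capsule genes.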

How the data were processed

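RNA-Seq libraries of 6 pools of E14.5 lenses (3 control, 3 Gata3 CKO) were analysed. Per the study's methods and its processing notes, the authors trimmed strand-specific paired-end reads with Trim Galore, aligned them to mm10 with TopHat2 2.0.13, counted fragments per gene with HTSeq 0.6.1, and used Cuffdiff 2.2.1 and DESeq2. They deposited unnormalized whole-number counts per gene for 13024 genes, and the strand and overlap options of the counting are not given in the sources used here. Of these genes, 42 had 0 counts throughout. The titles number the CKO libraries 1 to 3 and were used, while the descriptions number them from 2.

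Counts were scaled by TMM and tested with edgeR 4.0.16 in R 4.3.3 (robust quasi-likelihood fit, at least 10 counts in at least 3 libraries, Benjamini-Hochberg adjustment over 12879 genes at 0.05). CPM and FPKM use TMM library sizes, and log2 values add 0.5 counts. Ratios were compared by exact permutation in scipy 1.17.1. Nothing states that the pools came from separate litters, so p-values measure the spread between these pools. Counting error depends on the counts of each gene, which were 386 (Nid2, CKO pool 1) or more for the 10 genes. Some companion genes had far fewer, such as P4ha3 with 37 in control pool 3. Counting error was not compared with that spread. The fit was tested on simulated data. Gene positions and exon lengths came from GENCODE M21 (GRCm38) and promoter windows from RefSeq (GRCm38.p6).

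The 10 genes, the companion and marker lists and the tests were chosen with earlier results of these data known. Named genes are all 10, the first 4 tested of each companion list and any with an adjusted p under 0.05 in edgeR or DESeq2, the first 2 of each marker list in the table, and the 10 genes nearest to the mean profile. Lama4, Pxdn, their ratios and those with Itga6 were named after their values were seen. Alternatives were DESeq2 1.42.0 (Wald test, and again with shrunken fold changes), limma 3.58.1 voom, edgeR without robust shrinkage, other normalization and filters, the replicate number as a block, other exon lengths, an offset of 0 for ratios, and each library left out in turn. Leaving out libraries for the ratios to Lamc1 and for the 45 pairs was added after seeing the data. Values of some genes that this rule names are not reported here. No gene-set test was run.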

Additional observations from a re-analysis of the deposited data

How the results depend on the processing

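With 3 pools in each group, 1 library decided many signs, and no alternative called any of the 10 genes at an adjusted p of 0.05. Over all genes, 85 were called by DESeq2, 78 by DESeq2 with a prior on fold changes and 1 with library totals in place of TMM. With a library left out, 0 to 1 was called, and 271 (without CKO pool 3) to 1234 (without control pool 3) had an unadjusted p under 0.05, which was 457 in edgeR with all libraries and 806 without control pool 2. Of the 10 genes, 2 had an unadjusted p under 0.05 in DESeq2 (507 of all genes), 2 in DESeq2 with a prior (503 of all genes), 1 with the replicate block, and 0 to 2 with a library left out. A lower fitted level in CKO was found for 4 of the 10 with library totals and for 2 (without control pool 2) to 9 (without control pool 3) with a library left out, and for 4 without CKO pool 3. Library totals raised the median log2 fold change of all genes by about 0.10 (to 0.103), and they turned Lama5 to 0.0681, Nid2 to 0.00366 and Hspg2 to 0.0665. Lama5 was 0.0103 in limma voom and 0.00156 with the replicate block. The cause of these turns was not tested.

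With a library left out in turn, log2 fold changes ran from -0.89 to -0.19 for Col4a1, -0.91 to -0.23 for Col4a2, -0.14 to 0.34 for Lama1, -0.31 to 0.33 for Lama5, -0.53 to 0.12 for Lamb1, -0.0552 to 0.47 for Lamc1, -0.60 to 0.19 for Nid1, -0.70 to 0.12 for Nid2, -0.24 to 0.35 for Hspg2 and 0.09 to 0.57 for Sparc. The median of the 10 ran from -0.35 to 0.26. Medians of the companion lists ran from -0.43 to 0.17 for other chains, -0.23 to 0.17 for other components, -0.10 to 0.18 for folding and cross-linking, -0.0300 to 0.0865 for heparan sulfate, -0.15 to 0.07 for receptors and -0.10 to 0.27 for proteases. The heparan sulfate median was 0.16 with library totals. The log2 ratio difference ran from -0.0438 to 0.17 for Lama1/Lama5 and -0.36 to 0.42 for Nid1/Nid2, and stayed below 0 for Lamb1/Lamc1, Col4a1/Lamc1 and Col4a2/Lamc1. Pairs of the 10 genes whose ratio did not overlap numbered 20 to 27, a count that leaving out a library cannot lower.

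Named companion genes that changed sign with a library left out were Col4a5 (-0.0773 to 0.55), Col4a6 (-0.0181 to 0.67), Lama2 (-1.22 to 0.52), Agrn (-0.15 to 0.20), Tinagl1 (-0.22 to 0.68), P4ha1 (-0.20 to 0.31), P4ha3 (-0.74 to 0.32), P4hb (-0.10 to 0.0525), Xylt1 (-0.26 to 0.0208), Ext1 (-0.0799 to 0.20), Ext2 (-0.0494 to 0.0829), Dag1 (-0.0489 to 0.13), Itgb1 (-0.17 to 0.10), Mmp2 (-0.82 to 0.89), Mmp11 (-0.0706 to 0.14), Mmp14 (-0.13 to 0.30) and Mmp15 (-0.18 to 0.25). Library totals gave 0.0653 for Lama2, 0.0806 for P4hb, 0.0796 for Itgb1, 0.0829 for Agrn and 0.0806 for Mmp15. Agrn was 0.00130 in DESeq2, 0.000852 with its prior, 0.0310 in limma voom, 0.00128 with DESeq2 size factors, 0.00775 with the upper quartile, 0.000207 with at least 100 counts and 0.0265 with the replicate block. Mmp15 was 3.64e-05 in DESeq2, 1.98e-05 with its prior, 0.0202 in limma voom, 0.00678 with the upper quartile and 0.0333 with the replicate block. P4ha3 was -0.0414 in limma voom and -0.0935 with the replicate block.

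With the longest transcript as length, Lamb1 was 48.9 FPKM in control and 40.4 in CKO and Sparc 397 and 497, against 28.5, 23.6, 241 and 302 with merged exons. By the longest transcript, Lamb1 stood above Lamc1 in control and below it in CKO. The order and the kept ranks given above thus hold for merged exons. Replicate numbers did not pair the samples: deviations of same-numbered pools correlated at -0.48, 0.09 and 0.43 over 12879 genes, and of the 6 pools only control pool 3 and CKO pool 3 matched best with their own number. With the replicate block, 0 genes were called and 516 had an unadjusted p under 0.05.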
